A study of Homo sapiens with 24 samples.

Results

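On a stiff matrix, HEK293A cells lacking the RAP2 GTPases held more mRNA of YAP and TAZ target genes than wild-type cells, with ANKRD1, CYR61 and CTGF among the 5 largest rises of genes with a mean FPKM of at least 5, and less mRNA of PALM, RAMP1, VAMP8 and of a long stretch of chromosome 9. HEK293A is an adherent line from human embryonic kidney. The comparison sets 3 libraries labelled RAP2A/B/C-tKO (RAP2 tKO, knockout of RAP2A, RAP2B and RAP2C) against 3 wild-type (WT) libraries, all from cells on fibronectin-coated hydrogels of 40 kPa, in medium with serum and no other treatment. These are 6 of the 24 libraries of the study, which also holds these genotypes on soft gels of 1 kPa and, for each gel, 3 libraries each of the lines labelled LATS1/2-dKO (LATS dKO) and YAP/TAZ-dKO (YAP/TAZ dKO). The design text calls the 3 libraries of a group biological replicates. The sources used here do not say how the lines were edited or from how many clones they came. If each line is a single clone, differences between clones and the effect of the knockout cannot be told apart.

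Of the 58174 gene symbols used, the comparison covers the 14137 with an FPKM of at least 1 in 3 or more of these 6 libraries. Some genes passed this minimum only through the group where they are high, and they are counted among the rises or falls. Among them are TGFB2, CNN1, NEDD9, S100A16 and RBP7, through RAP2 tKO libraries, and RAMP1, MAP1A and HSPA1A, through WT libraries. FPKM is the number of sequenced fragments per length of transcript and per depth of library, so that levels can also be compared between genes. Differences below are RAP2 tKO minus WT in log2(FPKM + 1), which understates the change of genes with low FPKM. They are given with limma's standard error (SE) or its adjusted p. A gene is called, and said to rise or fall, where limma's adjusted p over all genes tested was below 0.05. The number of libraries is n = 3 in each group, and a value after ± is an SD unless called an SE. Unless a library is named as deciding a call, the call of a gene held when each of the 6 libraries was left out in turn. For the markers NEFL, LUM and GAP43 this was not looked at.

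RAP2A, RAP2B and RAP2C are small GTPases of the RAS family, which switch between a bound GTP and a bound GDP. RAP2 proteins signal to kinases of the MAP4K family (MAP4K4, MINK1 and TNIK), which act on the Hippo pathway. In that pathway LATS1 and LATS2 phosphorylate the coactivators YAP (gene YAP1) and TAZ (gene WWTR1) and keep them out of the nucleus, where they would switch on genes through TEAD transcription factors. A soft matrix keeps YAP and TAZ inactive and a stiff matrix lets them act, so cells on 40 kPa are in the state where this restraint is usually low. The question put here is what the loss of RAP2 changes in that state.

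The 6 libraries held between 32.2 and 41.7 M fragments, estimated from the deposited confidence intervals. RAP2 tKO replicate 3 stands apart. Its deviation from the other libraries of its group follows the GC content of the genes, with a rank correlation across genes of -0.62, genes not being independent. With the genes in 4 equal classes of GC content, the median difference was 0.083 in the lowest class (median GC 39.1%) and -0.166 in the highest (60.2%). Leaving that library out, these medians were 0.010 and 0.038. The main counts below are therefore also given without that library. Of the 10 markers taken for the HEK293 line, 7 had an FPKM of at least 1 in all 6 libraries, among them KRT8, KRT18, VIM and EYA1, while NEFM and INA stayed under 0.1. The sum of the 10 lay between 842.6 and 875.4 in WT and between 1031 and 1082 in RAP2 tKO libraries. Of these, KRT8, KRT18 and VIM were called higher and NEFL lower. Of the 9 endothelial markers in the files, 7 were under 0.1 in all 6 libraries (CDH5, KDR and TEK among them) and none reached 1 in all. Also under 0.1 in all 6 were the immune markers PTPRC, CD3E and SPI1 and the fibroblast markers COL1A2, DCN, FAP and POSTN, while COL1A1 and the immune marker CD68 reached 1 in all 6. The sum of the 10 fibroblast markers lay between 6.36 and 7.29 in WT and between 6.74 and 8.36 in RAP2 tKO libraries, with LUM called higher, and that of the 10 immune markers between 5.71 and 6.84 and between 5.37 and 8.58. Of 10 neuron markers SYP, GAP43, TUBB3 and MAP2 reached 1 in all 6, with sums of 17.1 to 18.8 in WT and 15.1 to 21.4 in RAP2 tKO libraries, and GAP43 was called lower. The part of these cell types in the results was not tested. In bulk RNA, fewer cells of a kind and less RNA per cell cannot be told apart.

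The mRNA of the targeted genes was still present. RAP2A had an FPKM of 8.59, 9.05 and 8.68 in WT and 7.26, 7.08 and 6.03 in RAP2 tKO libraries. Without overlap between the groups it was lower by a log2 difference of -0.33 (adjusted p = 0.0354). That call was lost without RAP2 tKO replicate 3 (0.144) and without any WT library (0.0821, 0.107 and 0.0845 for replicates 1, 2 and 3). RAP2B was higher, at 5.25 ± 0.51 against 4.28 ± 0.23 (0.24, adjusted p = 0.0294), a call lost without WT replicate 1 (0.0816) or 2 (0.116) and without RAP2 tKO replicate 1 (0.0855) or 2 (0.0798). RAP2C stood at 21.3 ± 3.4 against 19.0 ± 0.59 and was not called (adjusted p = 0.533). A total over a gene does not show whether its coding sequence is intact, so these values do not check the labels.

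RAP2 tKO and WT differed in 1415 of the 14137 genes (10.0%), of which 594 were higher (4.20%) and 821 lower (5.81%). Most differences were small, and 45 genes (0.318%) differed by at least 2-fold on the log2(FPKM + 1) scale, 24 higher and 21 lower. Without RAP2 tKO replicate 3, 841 genes (5.95%) were called again in the same direction, 310 of the 594 higher and 531 of the 821 lower genes. Of the 45 genes, 36 were called again without it. In all, 415 of the 14137 genes were called higher and 722 lower without it. The groups did not overlap in 3833 genes (27.1%), 1902 higher (13.5%) and 1931 lower (13.7%). The count of called genes was 789, 911 and 813 without WT replicate 1, 2 or 3, and 1713 and 1625 without RAP2 tKO replicate 1 or 2. That of 2-fold differences was 70 and 69 without RAP2 tKO replicate 1 or 2. The spread was estimated over all 24 libraries, and 70 genes were called from the 6 libraries alone.

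**Figure D1:**
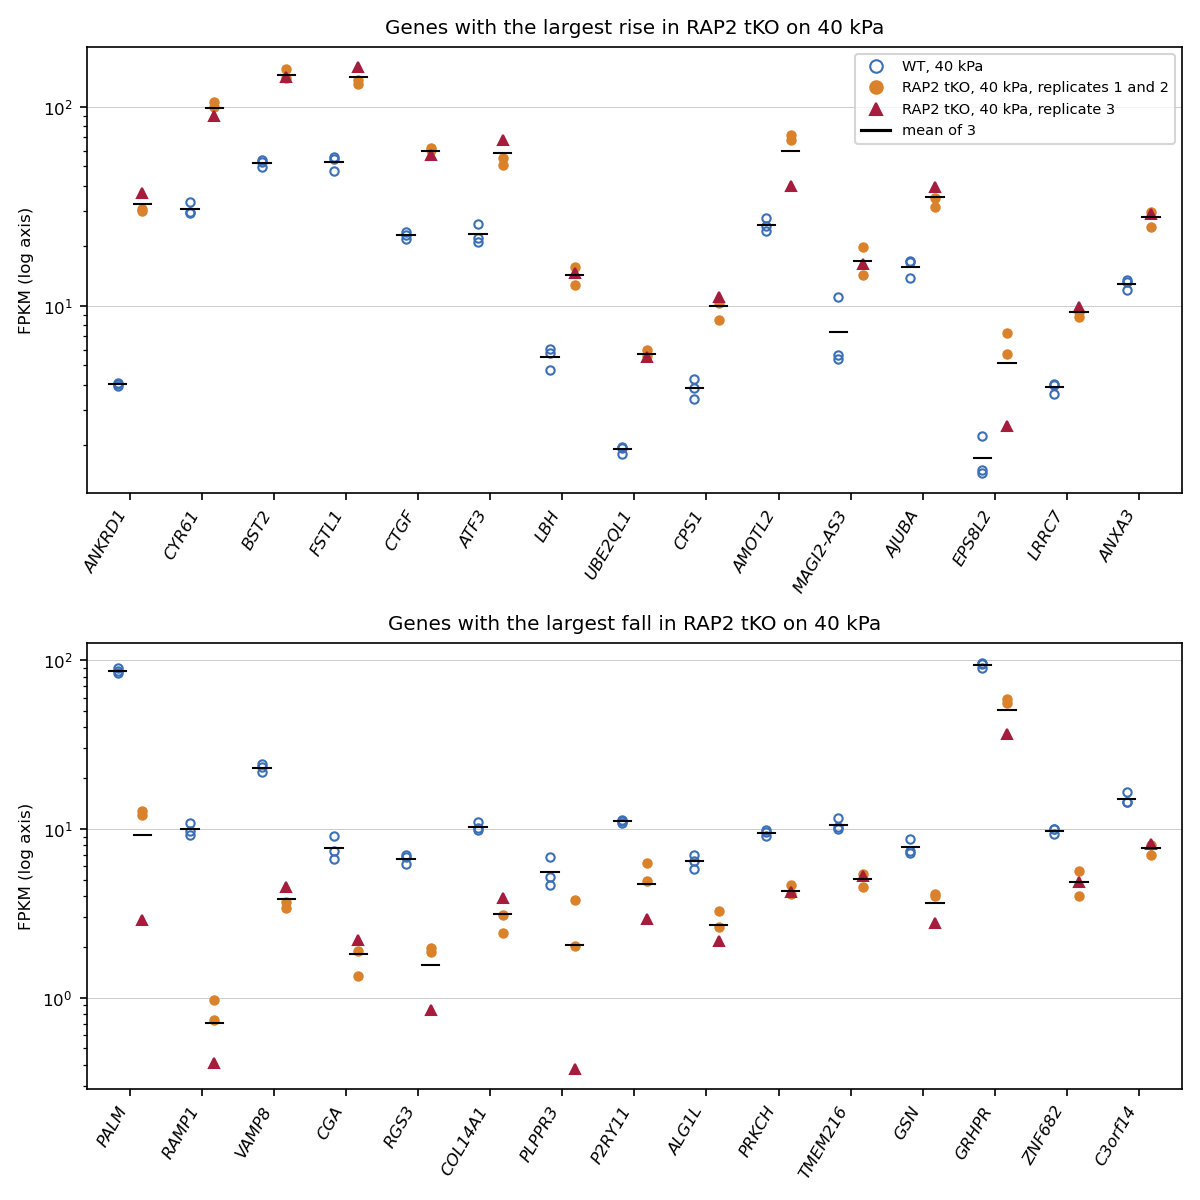
FPKM per library (log axis) of the 15 genes with the largest rise (top) and the 15 with the largest fall (bottom) in RAP2 tKO against WT cells on 40 kPa. Open circles are WT, filled circles RAP2 tKO replicates 1 and 2, triangles RAP2 tKO replicate 3, and bars the mean of 3. The groups do not overlap in any of these genes, since that was a condition for their choice, and replicate 3 lies well below its 2 partners for PALM, RGS3, PLPPR3, AMOTL2 and EPS8L2.

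The signature of 22 genes that YAP, TAZ and TEAD drive in many cells was the list with the largest median rise. Of its 18 members tested, 7 rose (against 4.20% of all genes) and none fell. The median difference over the 18 was 0.37, beside -0.01 over all genes tested. Without RAP2 tKO replicate 3 the median was 0.43 and 5 members were called, all among the 7, and 5 were also called without WT replicate 3. With array weights, which give RAP2 tKO replicate 3 little weight, 13 were called, all higher. Of all 14137 genes, 1237 were called higher with array weights and 415 without RAP2 tKO replicate 3, against 594 in the main fit. AXL, IGFBP3, NT5E and NUAK2 were under the minimum and not tested.

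ANKRD1, a repeat protein of muscle and endothelium that is among the most used readouts of YAP, had an FPKM of 4.06, 3.94 and 4.05 in WT and 29.9, 30.5 and 36.7 in RAP2 tKO libraries. Every RAP2 tKO library was far above every WT library. The means differed 8.06-fold, with a log2 difference of 2.73 ± 0.10 (SE, adjusted p = 2.13e-12). CYR61, a secreted matrix-bound protein that binds integrins, stood at 29.1, 33.0 and 29.4 in WT against 100.1, 105.7 and 89.2 in RAP2 tKO libraries (log2 difference 1.66 ± 0.09 SE, adjusted p = 3.61e-10). Its close relative CTGF, which binds growth factors and matrix, stood at 22.5, 23.4 and 21.7 against 60.2, 61.8 and 57.1 (1.37 ± 0.05 SE, adjusted p = 9.39e-12). In both genes the groups were wide apart and the libraries within a group close together. AMOTL2, a junction protein that binds YAP and holds it in the cytoplasm, stood at 25.04, 27.5 and 23.6 against 68.1, 71.6 and 39.8. Here RAP2 tKO replicate 3 lay between WT and its partners, and the log2 difference was 1.16 with it and 1.43 without it (adjusted p = 0.000637 and 2.09e-05).

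The promoters of ANKRD1 and CTGF are shown because these genes are among the largest rises of the signature and hold the TEAD motif. They were chosen for holding it. The promoter of AMOTL2 did not hold it, and none was available for CYR61, which rose more than CTGF. The 250 bases before the start of each gene are from RefSeq on GRCh38.p14, 5′ to 3′ on the strand of the gene, with matches to the motif GGAATG on either strand in capitals. ANKRD1 lies on the minus strand of chromosome 10 (chr10:90921088-90921337), and its matches begin at -220 and -128 from the start. CTGF, listed by RefSeq as CCN2, lies on the minus strand of chromosome 6 (chr6:131951373-131951622), and its matches begin at -169, -104 and -95.
ANKRD1: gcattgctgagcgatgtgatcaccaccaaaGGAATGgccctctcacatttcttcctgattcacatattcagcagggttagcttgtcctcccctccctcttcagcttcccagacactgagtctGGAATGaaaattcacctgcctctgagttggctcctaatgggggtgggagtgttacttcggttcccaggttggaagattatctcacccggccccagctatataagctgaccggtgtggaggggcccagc
CTGF: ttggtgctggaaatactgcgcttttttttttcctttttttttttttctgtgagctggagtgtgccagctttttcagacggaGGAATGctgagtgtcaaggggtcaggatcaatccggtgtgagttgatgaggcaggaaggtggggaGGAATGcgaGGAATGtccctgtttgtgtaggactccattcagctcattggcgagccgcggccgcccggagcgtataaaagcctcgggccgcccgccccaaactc
A motif was searched in windows from 250 bases before to 50 after the start, on both strands. GGAATG was found in 6 of the 12 signature members with a promoter in the table, namely ANKRD1, CTGF, TGFB2, PTPN14, LATS2 and FOXF2. It was found in 10.5% of the promoters of all genes tested, in 10.9% of those of genes called higher and in 9.61% of those of genes called lower. Among the 14 of the 15 largest rises with a promoter in the table, ANKRD1 and CTGF held it. The AP-1 motif TGANTCA stood in the ANKRD1 promoter and in 4.05% of the promoters of genes tested. A match is a run of letters and not a measured site.

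GADD45A, a stress-induced inhibitor of growth, completed the signature genes whose call held without any library, at 10.7, 10.2 and 9.12 in WT against 14.7, 13.2 and 13.3 in RAP2 tKO libraries (0.42, adjusted p = 0.00522). MYOF, a membrane repair protein, rose by 0.48 (adjusted p = 0.0115), a call lost without WT replicate 1 (0.0685), WT replicate 3 (0.0717) or RAP2 tKO replicate 3 (0.06). The growth factor TGFB2 rose from 0.61 ± 0.22 to 1.64 ± 0.59 (0.70, adjusted p = 0.00919), a call lost without WT replicate 3 (0.0546) or RAP2 tKO replicate 3 (0.051). It is counted among the rises, but it was tested only because its RAP2 tKO libraries reached the minimum FPKM. The other 11 members were not called. CRIM1 (0.57), F3 (0.51, adjusted p = 0.0502), DOCK5 (0.32) and PTPN14 (0.31) were higher without overlap between the groups, as were 13.5% of all genes tested. CCDC80, RBMS3, LATS2, FJX1, ARHGEF17, ASAP1 and FOXF2 overlapped, with differences between -0.07 for FOXF2 and 0.27 for CCDC80. The signs of FOXF2, ARHGEF17 and RBMS3 changed with the processing.

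**Figure D2:**
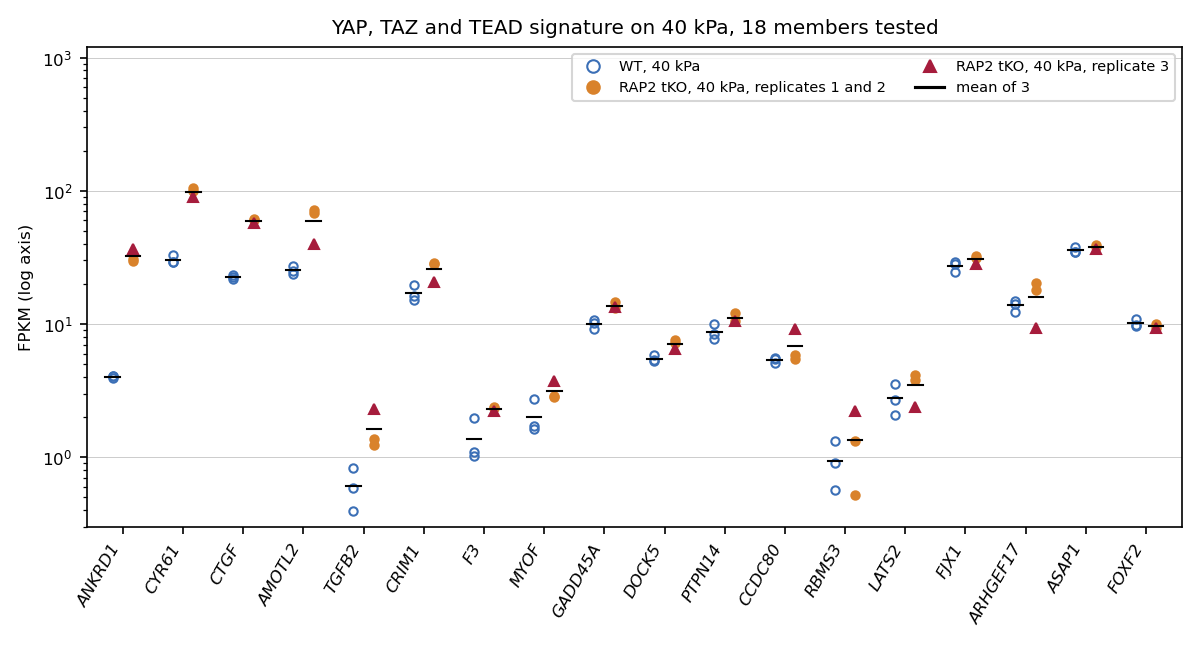
FPKM per library (log axis) of the 18 signature members tested, ordered by log2 difference. Open circles are WT, filled circles RAP2 tKO replicates 1 and 2, triangles RAP2 tKO replicate 3, and bars the mean of 3. The separation shrinks from ANKRD1 (4.02 against 32.4) to members such as ASAP1 (35.8 against 38.0) whose groups overlap.

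Within the Hippo pathway itself, 4 of 37 genes rose and 2 fell, with a median of 0.07, beside 4.20% higher and 5.81% lower of all genes. The counts were 4 and 2 without RAP2 tKO replicate 3 and 3 and 1 without WT replicate 1 or 2. The median was 0.11 without RAP2 tKO replicate 1 or 3. AJUBA, which binds and restrains LATS kinases at junctions, was the member with the largest rise, at 13.8, 16.6 and 16.7 in WT against 31.4, 34.8 and 39.4 in RAP2 tKO libraries (1.12 ± 0.12 SE, adjusted p = 9.92e-06). WWC2, a scaffold that brings LATS and its activators together, rose from 15.8 ± 1.2 to 23.2 ± 3.3 (0.51, adjusted p = 0.000242). Of the TEAD factors, TEAD1 rose from 20.4 ± 1.3 to 26.2 ± 1.1 (0.35, adjusted p = 0.0027) and TEAD2 fell from 22.0 ± 1.8 to 16.8 ± 1.2 (-0.37, adjusted p = 0.00504). Under a correction for GC content no Hippo member was called lower. In the main fit the kinase MINK1, described below, was called lower. The kinases LATS1 (0.20), LATS2 (0.24), STK3 (-0.07) and STK4 (-0.02) and the coactivators YAP1 (0.04) and WWTR1 (0.14) were not called.

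Among 29 RAP GTPases, regulators and effectors tested, 2 rose and 2 fell, with a median of 0.03, beside 4.20% higher and 5.81% lower of all genes. These counts fell to 2 and 1 without RAP2 tKO replicate 3 or WT replicate 3, to 1 and none without WT replicate 2 and to none without WT replicate 1, and were 1 and 3 and 1 and 2 without RAP2 tKO replicates 1 and 2. The median was 0.01 without RAP2 tKO replicate 3. PIP5K1A, a kinase that makes the lipid PIP2, rose from 81.9 ± 6.3 to 99.3 ± 6.2 (0.28, adjusted p = 0.00834), a call lost without WT replicate 1 (0.0556). MINK1, a MAP4K kinase that binds RAP2, fell from 38.1 ± 0.64 to 30.6 ± 1.2 (-0.31, adjusted p = 0.0155), a call lost without WT replicate 1 (0.0543) or 2 (0.0534). The related kinases MAP4K4 (0.16) and TNIK (-0.13) and the paralogs RAP1A (0.09) and RAP1B (0.06) were not called.

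Outside the signature, and at a mean FPKM of at least 5, the largest rise was that of BST2 (tetherin), an interferon-induced membrane protein that holds budding viruses at the cell surface. It stood at 52.5, 53.7 and 49.8 in WT against 154.7, 140.0 and 140.0 in RAP2 tKO libraries (1.46 ± 0.07 SE, adjusted p = 7.87e-11). FSTL1, a secreted glycoprotein that binds BMP ligands, stood at 47.5, 55.7 and 54.5 against 136, 129 and 158 (1.40 ± 0.07 SE, adjusted p = 7.87e-11). ATF3, a stress-induced transcription factor, stood at 25.6, 22.0 and 20.8 against 55.4, 50.8 and 68.2 (1.31 ± 0.11 SE, adjusted p = 4.21e-07). In all 3 genes each RAP2 tKO library lay above the highest WT library by more than the range of the WT group.

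Less abundant transcripts rose as well. LBH, a regulator of transcription in limb and heart, rose from 5.52 ± 0.70 to 14.3 ± 1.4 (1.23), and UBE2QL1, a ubiquitin-conjugating enzyme, from 1.89 ± 0.08 to 5.70 ± 0.27 (1.21). CPS1, the first enzyme of the urea cycle, rose from 3.84 ± 0.46 to 9.93 ± 1.29 (1.17) and LRRC7, a scaffold of neuronal synapses, from 3.88 ± 0.24 to 9.31 ± 0.56 (1.08). Limma's adjusted p for these 4 lay between 9.63e-09 and 1.88e-05. ANXA3, a calcium-dependent membrane-binding protein, rose from 12.8 ± 0.80 to 27.7 ± 2.4 (1.05, adjusted p = 0.00127). EPS8L2, an actin regulator, stood at 2.212, 1.44 and 1.498 in WT against 7.27, 5.68 and 2.49 in RAP2 tKO libraries, so that replicate 3 was barely above WT (1.10 with it and 1.46 without it). The antisense transcript MAGI2-AS3 rose by 1.13 (adjusted p = 0.0187), a call lost without WT replicate 1 (0.0882) or 3 (0.0905) or RAP2 tKO replicate 2 (0.0553), and its fragments cannot be told with certainty from those of MAGI2, since the strand setting of the counting is not given.

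The largest fall was that of PALM (paralemmin), a lipid-anchored protein of the plasma membrane linked to cell shape. It stood at 89.6, 83.6 and 86.1 in WT against 12.2, 12.7 and 2.88 in RAP2 tKO libraries. All RAP2 tKO libraries were far below WT, with replicate 3 lowest, and the log2 difference was -3.30 ± 0.34 (SE, adjusted p = 3.67e-06), or -2.70 without replicate 3. RAMP1, a partner that carries the calcitonin receptor-like receptor to the surface, stood at 10.9, 9.70 and 9.26 against 0.973, 0.734 and 0.412 (-2.69 ± 0.14 SE, adjusted p = 3.61e-10). VAMP8, a SNARE protein of endosomes and autophagosomes, stood at 21.6, 24.3 and 23.2 against 3.41, 3.68 and 4.50 (-2.31 ± 0.11 SE, adjusted p = 7.87e-11). WT means were 9.34, 14.1 and 5.96 times those of RAP2 tKO for PALM, RAMP1 and VAMP8.

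CGA, the alpha chain shared by the glycoprotein hormones, fell from 7.70 ± 1.29 to 1.81 ± 0.44 (-1.63, adjusted p = 2.21e-06), and COL14A1, a collagen of the surface of fibrils, from 10.3 ± 0.60 to 3.13 ± 0.73 (-1.46, adjusted p = 7.39e-07). RGS3, which shortens signalling by G proteins, stood at 6.23, 6.78 and 6.997 in WT against 1.96, 1.87 and 0.847 in RAP2 tKO libraries (-1.61, adjusted p = 7.2e-06). PRKCH, a kinase of the protein kinase C family, fell from 9.50 ± 0.36 to 4.31 ± 0.28 (-0.99) and TMEM216, a protein of the base of the cilium, from 10.6 ± 0.85 to 5.04 ± 0.47 (-0.94). GSN (gelsolin), which severs actin filaments, fell from 7.78 ± 0.84 to 3.65 ± 0.75 (-0.93), and GRHPR, an enzyme of glyoxylate metabolism, from 93.8 ± 3.4 to 50.3 ± 12.05 (-0.91). ZNF682, a zinc finger gene, and C3orf14 each fell by 0.89 on the log2 scale. The WT and RAP2 tKO libraries did not overlap in any of these 9 genes, since that was a condition for their choice.

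Among the falls, 3 are less certain. PLPPR3, a neuronal membrane protein, stood at 6.79, 5.19 and 4.64 in WT against 3.79, 2.02 and 0.378 in RAP2 tKO libraries, and the difference of -1.26 (adjusted p = 0.00881) shrank to -0.77 without RAP2 tKO replicate 3, with a call lost without WT replicate 1 (0.0501). P2RY11, a receptor for ATP, fell from 11.1 ± 0.23 to 4.69 ± 1.68 (-1.13, adjusted p = 0.000158) but overlaps a neighbouring gene with which it can form a common transcript. ALG1L fell from 6.41 ± 0.63 to 2.68 ± 0.55 (-1.02, adjusted p = 6.35e-05) but has near-identical copies that may share fragments.

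Few genes were switched on or off, counted among called genes and leaving out clone names, mitochondrial symbols and several classes of noncoding RNA. RBP7, a retinol-binding protein, alone met the rule of an FPKM under 0.5 in all WT and at least 2 in all RAP2 tKO libraries, at 0.128, 0.148 and 0.45 against 2.56, 3.26 and 2.78 (1.64, adjusted p = 6.05e-08). In the other direction 4 genes met it. MAP1A, a microtubule-binding protein of neurons, stood at 2.16, 2.14 and 2.38 in WT against 0.455, 0.339 and 0.491 (-1.18, adjusted p = 5.23e-10). The heat shock protein HSPA1A stood at 3.51, 2.66 and 3.30 against 0.113, 0.2 and 0.145 (-1.85), but its neighbour HSPA1B is almost identical and may share its fragments. TSSC2, a pseudogene with copies, fell by 1.69 on the log2 scale. RNA5SP284, a ribosomal RNA pseudogene, was listed at 0 in all RAP2 tKO libraries and at 6.23, 4.81 and 5.54 in WT, a call lost without RAP2 tKO replicate 3 (0.06) or any WT library, and on 1 kPa it was listed at 0 in WT.

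Actin genes follow, beside 4.20% higher and 5.81% lower of all genes. Of 25 targets tested of SRF and its cofactor MRTF, which read the state of actin, 5 rose and none fell, with a median of 0.10, and 8 rose without RAP2 tKO replicate 3. The median was 0.16 without that library and 0.06 and 0.05 without RAP2 tKO replicates 1 and 2. TPM1 (tropomyosin) stood at 49.5, 42.1 and 40.5 in WT against 75.6, 68.9 and 80.6 in RAP2 tKO libraries (0.76, adjusted p = 8.03e-05). VCL (vinculin), which ties integrin adhesions to actin, rose from 59.7 ± 3.9 to 76.2 ± 4.8 (0.35), and the actin-binding calponins CNN3 from 146 ± 4 to 208 ± 43 (0.49, or 0.32 without RAP2 tKO replicate 3) and CNN1 from 0.477 ± 0.045 to 1.68 ± 0.61 (0.84). CNN1 is counted among the rises but was tested only because its RAP2 tKO libraries reached the minimum FPKM. FHL2, a LIM cofactor, rose by 0.25 (adjusted p = 0.0125), a call lost without WT replicate 1 (0.0587) or 3 (0.0531).

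Of 33 integrin and adhesion genes, 6 rose and 3 fell, with a median of 0.10, and 5 rose and 3 fell without RAP2 tKO replicate 3 (median 0.14). The shares over all genes were 4.20% higher and 5.81% lower. SDC2 (syndecan 2), a heparan sulfate proteoglycan that binds matrix, stood at 79.9, 78.0 and 75.2 in WT against 114, 111 and 119 in RAP2 tKO libraries (0.56 ± 0.05 SE, adjusted p = 3.56e-07). CD44, the hyaluronan receptor, rose from 15.6 ± 1.4 to 27.7 ± 3.5 (0.78, adjusted p = 0.00097), and the scaffold NEDD9 from 0.35 ± 0.11 to 1.33 ± 0.22 (0.79, adjusted p = 4.43e-05). NEDD9 too is counted but was tested only through its RAP2 tKO libraries. TLN1 (talin 1), which links integrins to actin, fell from 130 ± 4 to 86.9 ± 14.9 (-0.59) and PARVB (parvin beta) from 39.0 ± 2.6 to 27.8 ± 3.2 (-0.48). The integrin subunits ITGB1 (0.14), ITGAV (0.34) and ITGA5 (0.08) were not called.

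Matrix genes were called about as often as all genes (10.0%). Of 21 collagens and collagen-modifying enzymes tested 1 rose and 1 fell, and of 23 laminins and matrix glycoproteins 2 fell. The only rise, LOXL1, was lost without each WT library and RAP2 tKO replicates 1 and 2, and 4 collagen genes fell without RAP2 tKO replicate 2. LOXL1, which crosslinks elastin, stood at 41.2, 39.0 and 40.8 in WT against 86.6, 90.5 and 44.8 in RAP2 tKO libraries, so that replicate 3 stood near WT (0.79 with it and 1.12 without it). Its adjusted p without each of the other 5 libraries lay between 0.0594 and 0.0778. COL4A6, of basement membranes, fell by 0.29 and VCAN (versican) by 0.48 on the log2 scale, while the fall of LAMB1 by 0.47 (adjusted p = 0.0239) was lost without WT replicate 1 (0.0699) or 2 (0.0857) or RAP2 tKO replicate 1 (0.0824).

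Epithelial and mesenchymal genes did not part into 2 directions, and are given beside 4.20% higher and 5.81% lower of all genes. Of 15 epithelial genes tested 4 rose and 1 fell (2 and 2 without RAP2 tKO replicate 3), and of 13 mesenchymal genes 3 rose and 1 fell (2 and 1). Of the epithelial genes 1 rose without WT replicate 1 or 3 and 2 without WT replicate 2, and 3 fell without RAP2 tKO replicate 1. No mesenchymal gene fell without WT replicate 1 or 2 or RAP2 tKO replicate 1 or 2. The intermediate filament genes KRT8, at 243, 235 and 231 in WT against 293, 310 and 352 (0.42, adjusted p = 0.000333), and VIM, at 226, 214 and 225 against 292, 288 and 288 (0.38, adjusted p = 3.81e-05), both rose, as did the repressor ZEB1 (0.43). KRT8 and its partner KRT18 have many pseudogene copies that may share fragments.

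Genes of the ERK pathway's output and feedback had a median of 0.20, with 4 of 16 higher and 1 lower, or 3 and none without RAP2 tKO replicate 3. The shares over all genes were 4.20% higher and 5.81% lower. DUSP4, a phosphatase that shuts off ERK, rose from 5.57 ± 0.17 to 8.29 ± 0.77 (0.50, adjusted p = 0.000199). The growth factor HBEGF rose by 0.51, and the receptor EPHA2 from 23.4 ± 0.90 to 35.3 ± 3.9 (0.57, adjusted p = 0.0127), the latter a call lost without WT replicate 3 (0.0531). Of this list 2 genes rose without WT replicate 3, and none fell without any 1 of the WT libraries.

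Of 21 immediate-early genes, whose transcription follows a stimulus within minutes, 2 rose and 4 fell, beside 4.20% higher and 5.81% lower of all genes. Without RAP2 tKO replicate 3, 4 rose and 3 fell. Without WT replicate 1, 2 fell, and 1 rose without each of WT replicates 2 and 3 and RAP2 tKO replicates 1 and 2. Their median was -0.13, but 0.11 without RAP2 tKO replicate 3, -0.20 without RAP2 tKO replicate 2 and -0.05 without WT replicate 1. Besides ATF3, JUN was called higher, at 18.8, 16.01 and 16.9 in WT against 35.9, 35.6 and 19.4 in RAP2 tKO libraries. Replicate 3 again stood near WT (0.73 with it and 1.02 without it), and the call was lost without each of WT replicates 2 and 3 and RAP2 tKO replicates 1 and 2 (adjusted p between 0.0576 and 0.0653). KLF10 fell from 7.41 ± 0.34 to 5.83 ± 0.07 (-0.30) and KLF6 from 17.4 ± 0.14 to 12.97 ± 0.93 (-0.40).

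In 3 developmental pathways 1 gene rose and the other calls were falls, beside 4.20% higher and 5.81% lower of all genes. Of 14 TGF-beta and BMP targets, 1 rose (CTGF) and 3 fell, of 11 Wnt targets 1 fell (the receptor FZD7, -0.46), and of 15 Notch pathway genes 2 fell. The Notch target HEY1 stood at 30.4, 28.7 and 29.2 in WT against 20.3, 18.6 and 16.3 in RAP2 tKO libraries (-0.66, adjusted p = 2.81e-05). Of the Notch list 1 fell without each WT library, 1 rose and 1 fell without RAP2 tKO replicate 3, and 2 rose and 2 fell without RAP2 tKO replicate 2. Its median was -0.21, but 0.04 without RAP2 tKO replicate 3 and -0.38 and -0.40 without replicates 1 and 2. BHLHE40, a repressor of the clock and of TGF-beta signalling, fell from 4.31 ± 0.48 to 2.86 ± 0.35 (-0.46). Of 35 axon guidance genes 2 rose and 2 fell, among them the semaphorin receptor PLXND1 (-0.55) and the ligand EFNB2 (0.21). Of that list 1 gene fell without any 1 of the WT libraries or RAP2 tKO replicates 1 and 2, 1 rose without WT replicate 3, and 4 rose and 4 fell without RAP2 tKO replicate 3. Of the Wnt targets 2 fell without RAP2 tKO replicate 1 or 2, and 2 TGF-beta targets rose without RAP2 tKO replicate 2.

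Ribosomal protein genes were the list with the most falls. Of 41 tested, 10 fell (5.81% of all genes did) and none rose, with a median of -0.15. In 23 of the 41 the WT and RAP2 tKO libraries did not overlap and RAP2 tKO was lower, where 13.7% of all genes did so. Leaving out RAP2 tKO replicate 3, 7 fell and the median was -0.13. The count was 4, 6 and 7 without WT replicates 1, 2 and 3 and 15 without RAP2 tKO replicate 1. RPS6, which lies in the chromosome 9 stretch described below, stood at 1609, 1583 and 1576 in WT against 1061, 1011 and 1308 in RAP2 tKO libraries (-0.50). These genes have many processed pseudogenes that may share fragments, and on 1 kPa 2 of the 41 fell.

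Amino acid and protein folding genes follow, beside 4.20% higher and 5.81% lower of all genes. Of 28 genes of the ATF4 response, 2 rose and 4 fell. The number of rises was 0 without WT replicate 1, 1 without WT replicate 2 or 3 and 4 without RAP2 tKO replicate 2. SLC3A2, the heavy chain of amino acid transporters, fell from 1083 ± 55 to 789 ± 61 (-0.46, adjusted p = 0.000215), and its partner SLC7A5 stood at 952, 984 and 912 in WT against 680, 700 and 375 in RAP2 tKO libraries (-0.75 with replicate 3 and -0.46 without it). The serine synthesis enzyme PSAT1 fell from 79.6 ± 0.41 to 60.9 ± 2.4 (-0.38, adjusted p = 3.2e-06). Of 26 chaperones of the endoplasmic reticulum and the heat shock response 5 fell and none rose, and 6 fell without RAP2 tKO replicate 3. After HSPA1A, which was tested only through its WT libraries, these were led by PDIA4 (120 ± 1 to 89.7 ± 11.2, -0.42) and HSPA5, the main chaperone of the endoplasmic reticulum (143 ± 2 to 120 ± 6, -0.24). Of the chaperones 3 fell without WT replicate 2 or 3, and 1 rose without RAP2 tKO replicate 1 or 2.

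Among lipid and energy genes the calls were in both directions, beside 10.0% called of all genes. Of 24 cholesterol synthesis genes 1 rose and 4 fell, and the counts ran from none called (without WT replicate 1) to 2 and 5 (without RAP2 tKO replicate 1), with 1 and 1, none and 2, 2 and 2 and none and 5 without WT replicates 2 and 3 and RAP2 tKO replicates 2 and 3. Of 15 genes of fatty acid synthesis and desaturation 3 rose and 2 fell, with SCD5 at 16.1 ± 1.0 in WT against 12.6 ± 0.09 (-0.32, adjusted p = 0.000204) and ELOVL5, an elongase, at 52.4 ± 1.7 against 64.2 ± 5.5 (0.28). Without WT replicate 1 or 2, 1 of these genes rose, and without WT replicate 2 or 3 or RAP2 tKO replicate 1, 1 fell. Of 28 glycolysis and hypoxia genes 2 rose and 2 fell, with the hexokinase HK2 higher by 0.30, and 1 rise and no or 1 fall were left without any 1 of the WT libraries or RAP2 tKO replicate 2. Of 32 oxidative phosphorylation genes 3 fell, 5 without RAP2 tKO replicate 3 and 1 without any WT library, and 2 rose without RAP2 tKO replicate 2. ATP5C1, a subunit of ATP synthase, stood at 534, 521 and 500 against 399, 377 and 462 (-0.33, adjusted p = 0.00278).

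Proliferation genes too were called at about the share of all genes (10.0%). Of 28 G1/S and replication genes 3 rose and 1 fell, of 27 G2/M and mitosis genes 1 fell, and of 12 cyclins D and CDK inhibitors 1 fell. The fall of the kinesin KIF20A (G2/M) was kept only without RAP2 tKO replicate 3, and that of the inhibitor CDKN2B only without RAP2 tKO replicate 1 or 2, while 4 G2/M genes fell without RAP2 tKO replicate 3 and 5 G1/S genes rose without RAP2 tKO replicate 2. UNG, which removes uracil from DNA, rose from 102 ± 2 to 121 ± 7 (0.24) and the replication factor GINS2 from 40.1 ± 0.80 to 48.5 ± 3.4 (0.26). Of 22 p53 targets 3 fell and none rose, with a median of -0.15 and 4 falls without RAP2 tKO replicate 3. This count was 1 without WT replicate 1 and 6 without RAP2 tKO replicate 1. DDB2, a sensor of ultraviolet damage, fell from 31.5 ± 2.9 to 21.0 ± 1.7 (-0.56, adjusted p = 0.000806).

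The next 4 lists are given beside 4.20% higher and 5.81% lower of all genes. Of 22 interferon response genes 2 rose and 2 fell, or 1 fell without any 1 of the WT libraries or without RAP2 tKO replicate 3. BST2, described above, and OAS3, at 2.16, 1.72 and 2.21 in WT against 4.16, 5.31 and 2.96 in RAP2 tKO libraries (0.74, adjusted p = 0.00628), were the rises. IFITM1 fell from 8.49 ± 0.35 to 5.32 ± 0.71 (-0.59). Among 18 annexins, S100 and caveola genes 3 rose and 2 fell, and each of the 5 calls was also made without RAP2 tKO replicate 3. S100A16, counted but tested only through its RAP2 tKO libraries, rose from 0.767 ± 0.087 to 1.70 ± 0.32 (0.60). Its neighbour S100A13 fell from 79.7 ± 2.9 to 58.8 ± 4.5 (-0.43). Of 15 histone genes with polyadenylated transcripts 1 fell, the linker histone H1F0, at 21.2, 21.0 and 20.6 in WT against 15.7, 15.98 and 15.1 (-0.40, adjusted p = 2.21e-05). Of 14 genes of the insulin-like growth factor system 1 fell, a call kept without WT replicate 2 and lost without each of the other 5 libraries.

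**Figure D3:**
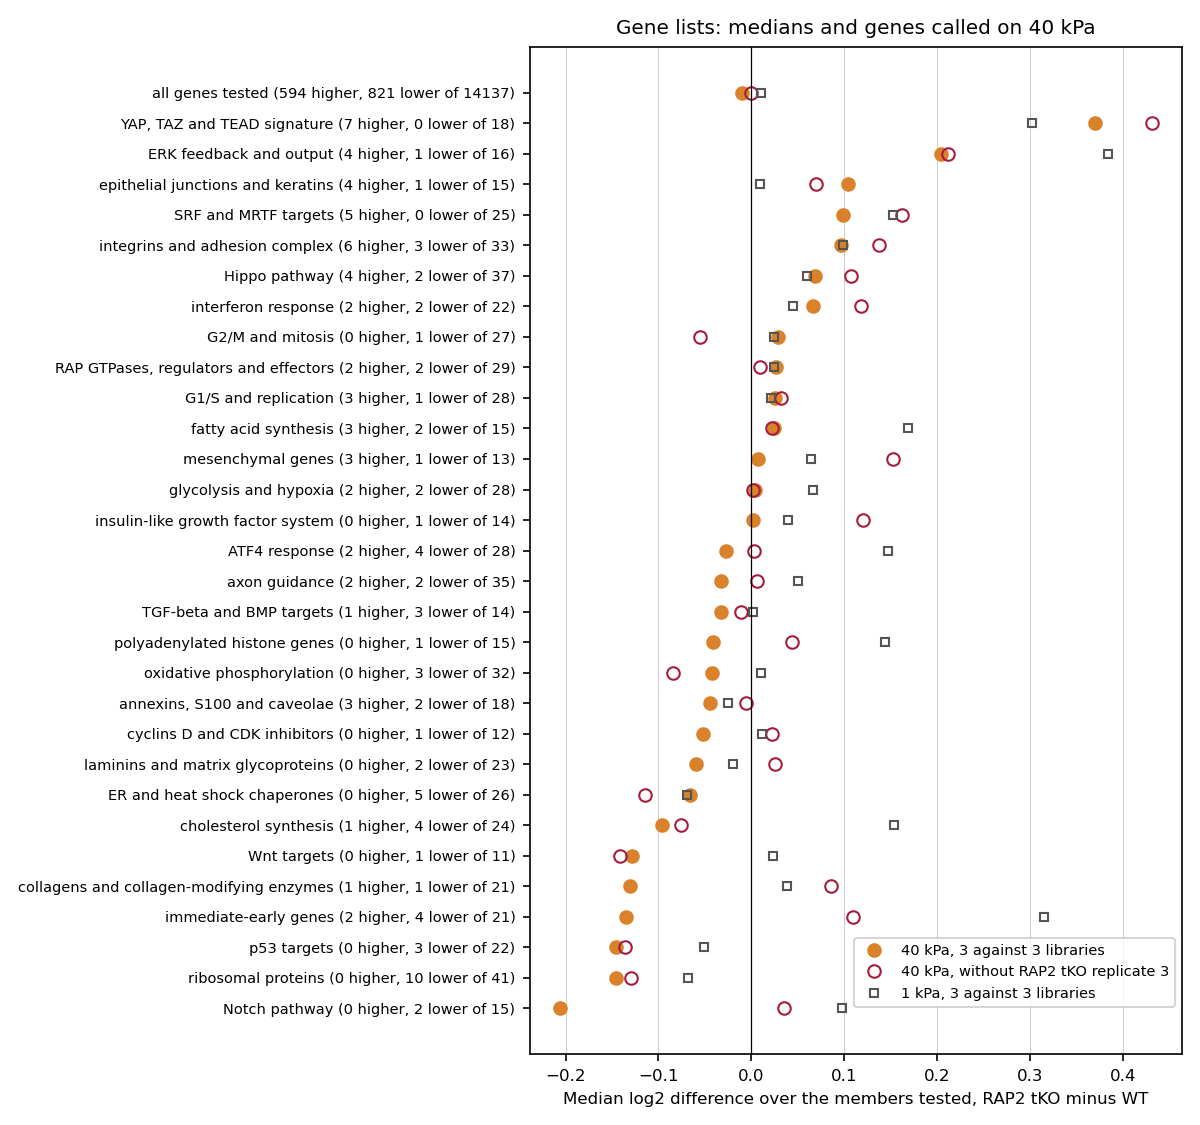
Median log2 difference (RAP2 tKO minus WT) over the tested members of each of 30 gene lists and over all 14137 genes, with the number called higher and lower on 40 kPa. Filled circles are 40 kPa, open circles 40 kPa without RAP2 tKO replicate 3, and squares 1 kPa. The YAP, TAZ and TEAD signature lies at 0.37 and 0.43 on 40 kPa, while the medians of several lists change sign without replicate 3, with the immediate-early genes, the Notch list and the collagens moving furthest.

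A part of chromosome 9 was lower as a whole. Genes tested were put in hg19 order in 356 windows of 40 neighbours. The first 9 windows of chromosome 9 (chr9:14521-124991905, 360 genes) were chosen after seeing that their medians all lay below -0.2. Over these genes the median difference was -0.37, a level 22.4% lower, and 338 of 360 were below 0. Of the 360, 193 were called lower (53.6%, against 4.56% of the genes elsewhere) and 1 higher. The stretch holds 2.55% of the genes tested and 23.5% of those called lower. Its median relative to the WT mean was -0.401, -0.404 and -0.275 in RAP2 tKO replicates 1 to 3 and between -0.014 and 0.014 in the WT libraries. The stretch was chosen on these same libraries, so these values and counts describe it and are no separate test of it. The next window (chr9:124999903-130455215) had a median of -0.022. RGS3, GSN, GRHPR, TLN1, PSAT1 and RPS6 lie in the stretch.

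On 1 kPa, in other libraries, the median over the stretch was -0.40, and it lay between -0.415 and -0.387 in the 3 RAP2 tKO libraries. In no gene of the stretch did the difference depend on the gel by limma's interaction test. LATS dKO libraries and those of YAP/TAZ dKO on 40 kPa had medians of -0.243 and -0.251 there, in comparisons that share the WT libraries. The LATS dKO median includes replicate 1, which has a GC skew as well. The files hold no measurement of DNA. Elsewhere, chromosome 22 had a median of -0.24 (-0.15 without RAP2 tKO replicate 3) and chromosome 19 of -0.20 (-0.05 without it). Leaving the stretch out of the count leaves 1221 called genes, 593 higher and 628 lower.

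**Figure D4:**
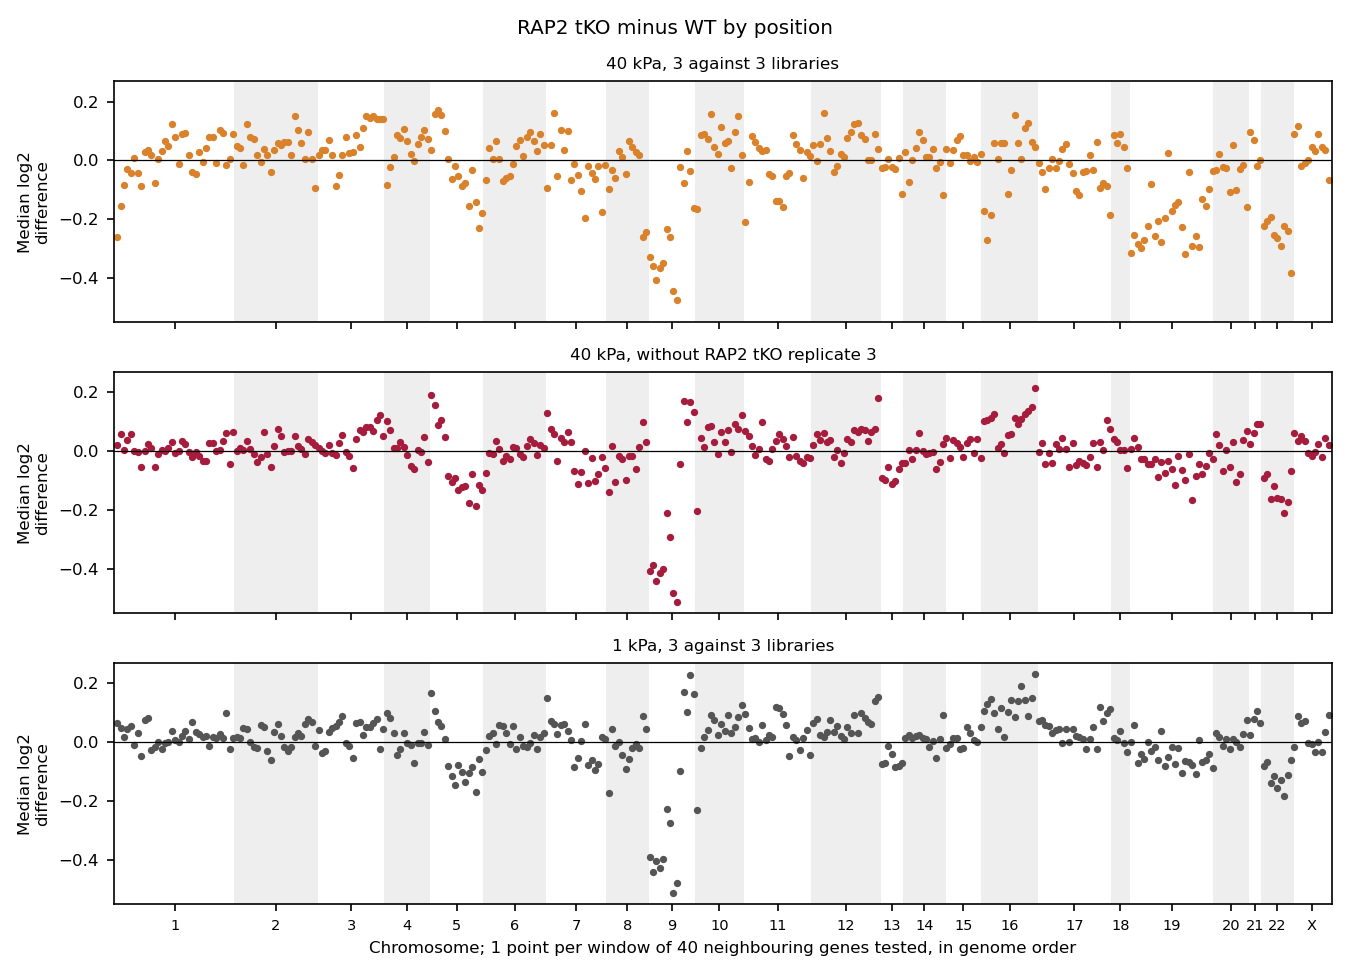
Median log2 difference (RAP2 tKO minus WT) in windows of 40 neighbouring genes, in genome order, on 40 kPa (top), on 40 kPa without RAP2 tKO replicate 3 (middle) and on 1 kPa (bottom); shading marks alternate chromosomes. The first 9 windows of chromosome 9 lie below -0.2 in each panel, while the lower medians of chromosome 19 are largely gone without replicate 3.

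Genes called on the stiff gel mostly had the same sign of difference on the soft gel, and a smaller share was called there too. The 1 kPa comparison rests on 6 other libraries. Of the 1415 genes called on 40 kPa, 1338 (94.6%) had the same sign on 1 kPa. The share of all genes tested with the same sign was not computed. On 1 kPa 1014 genes were called (7.17%), 426 higher and 588 lower, or 1559 where RAP2 tKO replicate 3 of the stiff gel was left out of the common spread, and 576 were called in the same direction on both gels, 40.7% of the calls on 40 kPa and 56.8% of those on 1 kPa. In the opposite direction 4 were called. The chromosome 9 stretch, which is not left out here, holds 193 of the genes called lower on 40 kPa and 204 of those on 1 kPa. Of the 45 genes that differed by at least 2-fold, 39 had the same sign and 34 were called on 1 kPa. Across all genes Pearson's r between the differences was 0.325, and 0.404 without RAP2 tKO replicate 3, as a description over genes that are not independent. PALM (-2.38 on 1 kPa), RAMP1 (-2.54), VAMP8 (-2.17), CYR61 (1.72) and BST2 (1.502) had differences on 1 kPa near those on 40 kPa.

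The difference between the genotypes depended on the gel in 8 genes (0.0566%) by limma's interaction test, of which 6 are described here. The count was 5 without WT replicate 1 or 3, 13 without RAP2 tKO replicate 3, and 3 with log2(FPKM + 0.1) or from the 12 libraries of the 4 groups alone. On the log2(FPKM + 1) scale it was larger on 40 kPa for ANKRD1 and FSTL1, 2 calls that neither of these last settings kept. ANKRD1 stood at 0.877 ± 0.24 in WT and 5.57 ± 0.44 in RAP2 tKO cells on 1 kPa, a log2 difference of 1.81 against 2.73 on 40 kPa, and the 2 differences were 0.92 apart (adjusted p = 0.0069). With WT under an FPKM of 1 on the soft gel, this value rests on the pseudocount. The means differed 6.35-fold on 1 kPa and 8.06-fold on 40 kPa, and with log2(FPKM + 0.1) the 2 differences were 0.41 apart and not called (adjusted p = 0.731), nor were they from the 12 libraries alone (0.25). FSTL1 differed by 0.86 on 1 kPa and 1.40 on 40 kPa (adjusted p = 0.0333), a call lost without WT replicate 1 (0.098) or 3 (0.0616), with log2(FPKM + 0.1) (0.0558) and from the 12 libraries alone (0.62).

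For CTGF and KRT18 the rise was smaller on the stiff gel. CTGF stood at 6.55 ± 0.37 in WT and 37.8 ± 0.72 in RAP2 tKO cells on 1 kPa (2.36, against 1.37 on 40 kPa; adjusted p of the difference 1.84e-06 by limma). WT cells thus held more CTGF on 40 kPa (22.5) than on 1 kPa, and RAP2 tKO cells on 40 kPa (59.7) more than either. KRT18 differed by 0.88 on 1 kPa and 0.21 on 40 kPa (adjusted p = 0.00239, or 0.108 from the 12 libraries alone). Its rise on 40 kPa was itself lost without 5 of the libraries (adjusted p between 0.0562 and 0.133) and kept without RAP2 tKO replicate 3. AMOTL2, with 2.13 on 1 kPa and 1.16 on 40 kPa, was not called for that difference (adjusted p = 0.428).

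EGR1 and ETV4, transcription factors induced by ERK signalling, went in opposite directions on the 2 gels. EGR1 stood at 4, 2.53 and 2.63 in WT against 1.85, 1.93 and 1.38 in RAP2 tKO libraries on 40 kPa, and at 3.57 ± 0.27 against 9.38 ± 0.74 on 1 kPa. The log2 differences were -0.56 and 1.18 (adjusted p of their difference 0.000483 by limma). ETV4 fell from 14.8 ± 0.95 to 10.8 ± 1.7 on 40 kPa (-0.43) and rose from 10.3 ± 0.83 to 18.6 ± 0.90 on 1 kPa (0.79; adjusted p of the difference 0.0069). The falls on 40 kPa were near the threshold. That of EGR1 was lost without WT replicate 1 (0.107) or RAP2 tKO replicate 3 (0.0737), and that of ETV4 without RAP2 tKO replicate 3 (0.178) or any WT library (0.0675, 0.129 and 0.107). The call of the difference between the gels was kept in both genes when each of the 6 libraries was left out, and with log2(FPKM + 0.1) it was lost for ETV4 (0.184) and kept for EGR1 (0.00285).

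**Figure D5:**
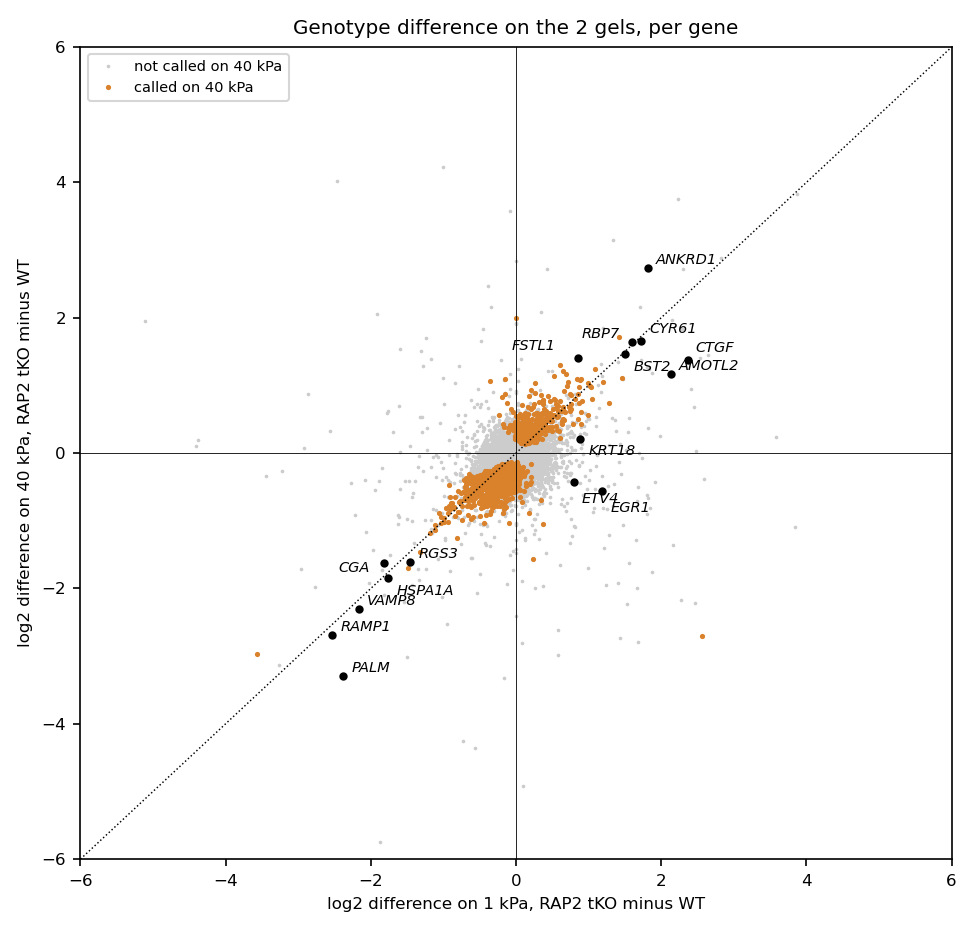
Log2 difference (RAP2 tKO minus WT) of each of the 14137 genes on 1 kPa (horizontal) and 40 kPa (vertical). Orange points were called on 40 kPa, black points are named, and the dotted line marks equal differences. PALM, RAMP1 and VAMP8 lie at the lower left, ANKRD1 above the line, CTGF and KRT18 below it, and EGR1 and ETV4 at the lower right.

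Beside the other knockout lines on 40 kPa, which are compared with the same 3 WT libraries, the leading genes had differing values. Limma called 3352 genes (23.7%) with LATS dKO and 5628 (39.8%) with YAP/TAZ dKO. ANKRD1 differed from WT by 2.73 in RAP2 tKO, 3.37 in LATS dKO and -2.25 in YAP/TAZ dKO cells. CTGF differed by 1.37, 1.81 and -4.27, CYR61 by 1.66, 2.14 and -2.52, and AMOTL2 by 1.16, 1.38 and -3.47 in the same order. For these 4 signature genes the RAP2 tKO and LATS dKO values were both positive and the YAP/TAZ dKO value negative.

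Other genes had other orders of values. BST2 differed by 1.46 in RAP2 tKO, 0.25 in LATS dKO and -3.83 in YAP/TAZ dKO cells. VAMP8 differed by -2.31, 0.24 and -3.44, so that it was low in RAP2 tKO and YAP/TAZ dKO cells. PALM differed by -3.30, -0.38 and 0.07 and was called in RAP2 tKO cells and not in the other lines (adjusted p = 0.469 and 0.887), but the differences between the lines were not tested. RAMP1 differed by -2.69, -2.29 and 0.51, COL14A1 by -1.46, -1.61 and 0.60, and HSPA1A by -1.85, -1.97 and -1.79, low in all 3 knockout lines.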

How the data were processed

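RNA was prepared with TRIzol from cells on the gels and sequenced from stranded poly(A) libraries with index set A or B, per the labels' protocols; which library had which set is not stated there, so it was not tested. STAR 2.4.2a, Cufflinks 2.2.1 and hg19 are named in the submitters' processing notes. The authors deposited, per the file headers, 1 Cufflinks table per library with FPKM values per gene and their confidence limits. The tables hold no read counts. Of 60350 entries with 58266 symbols, FPKM was summed per symbol, and 92 symbols that Cufflinks marked with a status other than OK or LOWDATA in any library were left out.

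Limma 3.58.1 (R 4.3.3) was fitted with a trend to log2(FPKM + 1). The 24 libraries entered the fit together, each group with its own mean, which left 16 degrees of freedom for the spread, and p was adjusted by Benjamini and Hochberg over 14137 genes. It was also run on simulated data with independent genes and the same spread in every library. The GC-skewed libraries here differ from that, so the run does not check the calls in these data. The design states 3 biological replicates per group. Named were the targeted genes, the 15 largest rises and falls called also without RAP2 tKO replicate 3 (no overlap, mean FPKM of at least 5), all signature members tested, up to 5 called genes per other list, genes under 0.5 in 1 group and at least 2 in the other, and genes whose difference depended on the gel. Clone names, mitochondrial symbols and several classes of noncoding RNA were left out of the largest rises and falls and of the genes under 0.5 in 1 group. A few other list members are given as values and were chosen after their values were seen. The comparison, the members and the lists were chosen with earlier results of these data known. GC content came from GENCODE transcripts (98.7% of genes) and promoters from RefSeq on GRCh38.p14, apart from the hg19 loci of the files.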

Additional observations from a re-analysis of the deposited data

Results flagged for a closer look

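In 6 genes called on 40 kPa the difference between RAP2 tKO and WT depended on the gel by limma's interaction test (n = 3 libraries in each of 4 groups). The value given is the log2 difference on 40 kPa minus that on 1 kPa. It was 0.91506 for ANKRD1 (adjusted p = 0.0069) and 0.54487 for FSTL1 (adjusted p = 0.0333), where the rise was larger on the stiff gel on the log2(FPKM + 1) scale. With log2(FPKM + 0.1) neither was called (0.41 and 0.55, adjusted p = 0.731 and 0.0558), nor from the 12 libraries of the 4 groups alone (0.25 and 0.62). The rise was smaller there for CTGF, at -0.99394 (adjusted p = 1.84e-06), and for KRT18, at -0.66307 (adjusted p = 0.00239). For EGR1, at -1.7453 (adjusted p = 0.000483), and ETV4, at -1.2221 (adjusted p = 0.0069), the sign differed between the gels. The calls of KRT18 from the 12 libraries alone (adjusted p = 0.108) and of ETV4 with log2(FPKM + 0.1) (adjusted p = 0.184) were lost too. Without WT replicate 1 or 3 of the stiff gel the call of FSTL1 was lost (adjusted p = 0.098 and 0.0616), and the other 5 calls were kept without each of the 6 stiff-gel libraries.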

How the results depend on the processing

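On 40 kPa, 1415 genes were called, and 70 with the 6 libraries alone (66 of them among the 1415) or 2798 with array weights. Leaving out 1 library gave 789 to 1713. Genes with 2-fold differences, 45, became 97 with a pseudocount of 0.1, 22 at a mean FPKM of at least 5, and 38 to 70 with 1 library left out. On 1 kPa, 1014 became 2268 with array weights, 2722 without both GC-skewed libraries (RAP2 tKO replicate 3 and LATS dKO replicate 1 on 40 kPa), 1719 after GC correction, and 953 to 1559 with 1 stiff-gel library left out. The 8 genes that depended on the gel became 3 with the 12 libraries alone, 28 with array weights, 17 without both GC-skewed libraries, 3 with a pseudocount of 0.1, and 5 to 13 with 1 library left out. In the other settings these counts stayed within 1.5 times. The causes were not tested, apart from the fewer libraries or genes that some settings hold.

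Among signature genes not called, the log2 difference of FOXF2 turned from -0.07 to 0.1305 after GC correction, that of RBMS3 (0.24) was -0.02336 without both GC-skewed libraries and ran from -0.02336 to 0.5184 with 1 library left out, and that of ARHGEF17 (0.13) ran from -0.07184 to 0.4532, called with array weights (0.4404, adjusted p = 0.0281) and without both GC-skewed libraries (adjusted p = 0.038). Of the 134 named genes called, 25 kept the call in all 15 settings and 81 in all but the fit of 6 libraries alone. With a replicate block 1327 genes were called. Libraries of the same number did not deviate together (correlations of -0.01, -0.086 and -0.085), and those of unlike numbers ran from -0.022 to 0.083. The main fit did not pair them. With 3 libraries per group, 1 of them GC-skewed, these values cannot decide whether libraries were paired. Without counts, the precision of genes with low FPKM cannot be computed, and 395 genes tested reached an FPKM of 1 in exactly 3 libraries.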
